A study of Mus musculus with 18 samples.

Results

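Fibroblasts of the newborn heart were compared before and after loss of the apex. The comparison sets 3 libraries of P2 resected +3 days against 3 libraries of P2 baseline, 6 of the 18 bulk RNA-seq libraries of the series, and covers every gene symbol that could be tested, 16170 of the 55453 in the table of counts. All pups carried 1 copy each of Tcf21-MerCreMer and Rosa-mTmG (Tcf21 MerCreMer/+; Rosa mTmG/+) on a C57BL/6J background and received tamoxifen at P1, which turned membrane tdTomato into membrane GFP in cells that used Tcf21 at that time. The GFP+ cells were sorted from the apical portion of the ventricles, so that fibroblasts that first used Tcf21 later were not collected and the sort holds what the Cre labelled. Baseline pups were not operated on and were collected at P2, 1 day after tamoxifen. Resected pups were given slow-release buprenorphine, an analgesic, and supplemental oxygen, were cooled for anaesthesia, and were kept from the mother until they recovered. They had the chest opened and the apex cut away at P2, and were collected at P5, 3 days after surgery and 4 days after tamoxifen. Age, surgery, anaesthesia, analgesic, oxygen, time without the mother, the resection and the days since tamoxifen therefore cannot be told apart between these groups. The 3 libraries of P2 sham +3 days, from pups of the same age and days since tamoxifen whose chest was opened without a cut to the heart, share the baseline libraries and are given beside them. Neither the sex of the pups nor the number of pups in a library was given in the sources used here, and p-values measure only the spread between these libraries, which may be technical.

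Cardiac fibroblasts descend largely from the epicardium and make the collagen, elastic fibres and proteoglycans that hold the ventricle together. In the first days of life the mouse heart is in rapid growth, its fibroblasts divide, and the matrix matures as pressure in the left ventricle climbs. The neonatal heart is also known for regrowing muscle after apical resection in the first week, a response that involves macrophages, fibroblast activation and a transient scar. Interferon-stimulated genes are a separate and well known programme, in which type I interferon acts through STAT factors on a DNA element called the ISRE.

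The 6 libraries held 15269480 to 22980554 reads counted on genes. At an equal depth of 10462737 reads, 15749 to 17471 genes were detected in the baseline libraries, 15710 to 16704 in the sham libraries and 18299 to 19510 in the resected libraries, so that every resected library showed more genes than any other of these 9. The part of this wider detection in the results was not tested. Tcf21 itself, the gene whose use marked the cells, was at 285, 312 and 282 CPM (reads of the gene scaled to the size of the library, with TMM factors) at baseline and 341, 209 and 203 CPM after resection, and Pdgfra, a receptor of cardiac fibroblasts, was at 353, 581 and 304 against 352, 387 and 442 CPM. Both groups overlapped in both genes, and the sorted cells carried fibroblast markers in all 6 libraries. Counts of Xist and of Y-linked genes were both present in baseline replicates 1 and 2, baseline replicate 3 and resected replicates 2 and 3 had Y-linked counts without Xist, and resected replicate 1 had Xist without Y-linked counts. The part of sex in the results was not tested.

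Only Vtn and Pamr1 passed the test, both higher after resection. With edgeR's quasi-likelihood test and Benjamini-Hochberg adjustment over all genes, they were 2 of 16170 genes or 0.0124%, and no gene was called lower. A further look at unadjusted p-values under 0.05 found 616 genes higher (3.81%) and 116 lower (0.717%). The CPM of the groups did not overlap for 1190 genes that were higher (7.36%) and 828 that were lower (5.12%), and the median log2 fold change of all genes was 0.01. DESeq2 on the same genes called 93 higher and 11 lower, and voom with sample quality weights called 53 higher and 24 lower. The plot of fold change against p shows where the 2 called genes and the main gene lists lie.

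**Figure D1:**
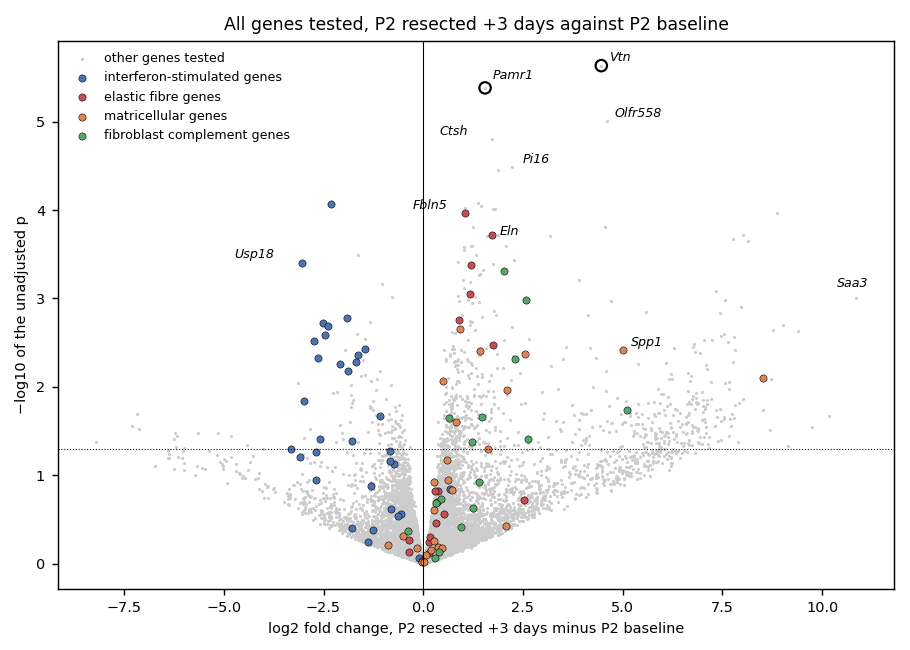
Each point is 1 of the 16170 genes tested, with the log2 fold change of P2 resected +3 days over P2 baseline on the x axis and the −log10 of the unadjusted p on the y axis; the dotted line marks p of 0.05 and coloured points are members of the gene lists in the legend. Vtn and Pamr1 are ringed, and 616 points lie past the line on the higher side against 116 on the lower side.

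Vtn encodes vitronectin, a secreted glycoprotein that binds integrins and the plasminogen activator inhibitor. It lies at chr11:78499091-78502324 on the plus strand (GRCm38, protein coding). Its level was 2.35, 0.465 and 0.0609 CPM in the 3 baseline libraries, which is 0.958 ± 1.22 CPM (SD, n = 3), and 14.9, 22.04 and 28.8 CPM after resection, which is 21.9 ± 6.98 CPM (SD, n = 3). Every resected library was far above every baseline library, and Vtn rose 22.1-fold (log2 fold change 4.46, SE 0.65, adjusted p = 0.0335). Baseline replicate 1 held 51 of the 62 Vtn reads of its group, and without it the log2 fold change was 6.26. In the sham libraries Vtn was at 21.2, 18.4 and 12.01 CPM, all above baseline (log2 fold change 4.12, adjusted p = 0.0908), and the resected and sham libraries overlapped (log2 difference 0.35, unadjusted p = 0.526). At P10 baseline it was at 85.5, 161 and 167 CPM.

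Pamr1, named in full peptidase domain containing associated with muscle regeneration 1, encodes a secreted protein and lies at chr2:102550012-102643041 on the plus strand. Its level was 46.5, 46.5 and 74.2 CPM at baseline, 105, 145 and 124 CPM after sham surgery and 191, 133 and 165 CPM after resection. The 3 resected libraries lay above all 3 baseline libraries, and Pamr1 rose 2.93-fold (55.8 ± 15.98 to 163 ± 29.2 CPM, SD, n = 3; log2 fold change 1.55, SE 0.24, adjusted p = 0.0335). All sham libraries were above baseline (log2 fold change 1.16, adjusted p = 0.148). The resected and sham libraries overlapped (log2 difference 0.39, unadjusted p = 0.106). Both calls rest on few libraries: with 1 library left out at a time, Vtn stayed called in 2 of 6 fits (without baseline replicate 1 or 3) and Pamr1 in 1 (without baseline replicate 3), and the adjusted p of Vtn ran from 0.000227 to 0.248.

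Among the genes next in the order of p, which did not pass the test, 3 were as follows. Olfr558, an olfactory receptor gene also used by vascular smooth muscle, was at 0.598, 0.419 and 0 CPM at baseline and 11.1, 8.67 and 6.28 CPM after resection (log2 fold change 4.61, adjusted p = 0.0532). Ctsh, the lysosomal protease cathepsin H, was at 8.38, 5.91 and 11.2 CPM against 33.9, 25.2 and 24.4 CPM (log2 fold change 1.72, adjusted p = 0.0638). Sod3, the extracellular superoxide dismutase, was at 67.7, 45.4 and 79.9 CPM against 161, 188 and 182 CPM (log2 fold change 1.46, adjusted p = 0.126). In all 3 genes no baseline library reached any resected library. The sham libraries of Ctsh (16.4, 14.4 and 17.4 CPM) and Sod3 (99.8, 117 and 102 CPM) lay between both groups without touching either, with a log2 difference of resected over sham of 0.79 (unadjusted p = 0.0123) for Ctsh and 0.74 (unadjusted p = 0.0186) for Sod3. No gene was called between resected and sham libraries (edgeR's quasi-likelihood test, smallest adjusted p of 1; 547 genes higher and 183 lower at an unadjusted p under 0.05; 25 called by DESeq2 and 0 by voom). The plot of 12 genes gives the libraries of Vtn, Pamr1 and others.

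**Figure D2:**
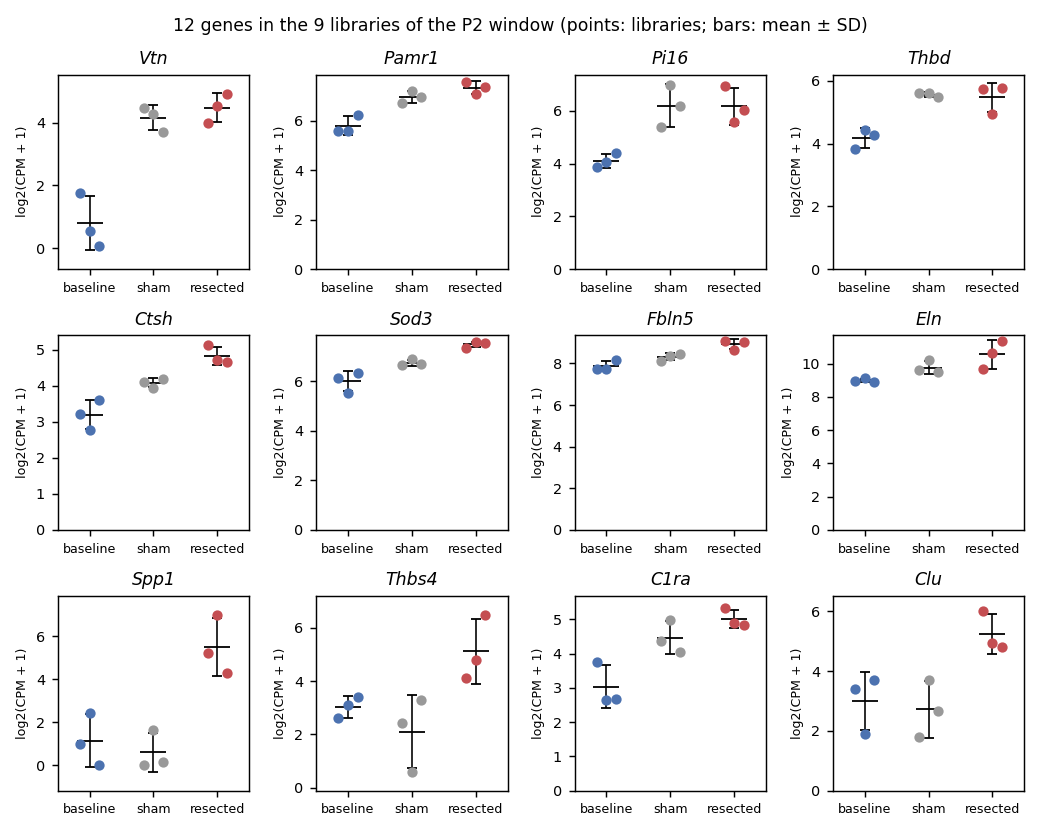
Levels of 12 genes as log2(CPM + 1) on the y axis in the 3 baseline, 3 sham and 3 resected libraries of the P2 window; points are libraries and bars the mean ± SD. Vtn, Pamr1, Pi16 and Thbd sat as high in the sham as in the resected libraries or nearly so, while Spp1, Thbs4 and Clu sat apart in the resected libraries.

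Interferon-stimulated genes were the group that stood lowest after resection. Of 33 tested, 32 had a negative fold change, the median log2 fold change was −1.79 beside 0.01 for all genes, and 25 (75.8%) had resected libraries all below baseline beside 5.12% of all genes. None was called by edgeR's quasi-likelihood test, and 17 (51.5%) were lower at an unadjusted p under 0.05 beside 0.717% of all genes. DESeq2 called 6 of them lower, among them Usp18, Oasl2, Rtp4, Irf7 and Ifih1, and voom 7, among them Usp18, Oasl2, Isg15, Ifih1, Stat2 and Ddx58. The count at an unadjusted p under 0.05 was 13 to 21 with any 1 of the 6 libraries left out, and the median was −2.15 to −1.49.

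Usp18, which takes ISG15 off its targets and restrains the receptor, was at 57.2, 88.7 and 50.5 CPM at baseline and 7.62, 10.2 and 6.22 CPM after resection (log2 fold change −3.03, SE 0.69, adjusted p = 0.191). Isg15, the ubiquitin-like modifier itself, was at 51.6, 77.8 and 52.0 CPM against 11.7, 9.66 and 5.84 CPM (log2 fold change −2.74, SE 0.79). In both genes every baseline library was several times above every resected library, and baseline replicate 2 was the highest of the 9 libraries.

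The sensors and effectors lay the same way. Oasl2, of the oligoadenylate synthetase family, was at 142, 208 and 104 CPM at baseline and 35.6, 25.7 and 18.6 CPM after resection (log2 fold change −2.50, adjusted p = 0.424). Ifih1, the RNA sensor MDA5, was at 30.6, 54.4 and 23.3 CPM against 11.2, 9.57 and 7.93 CPM (log2 fold change −1.92, adjusted p = 0.397). Irf7, the master factor of interferon production, was at 74.4, 134 and 57.3 CPM against 19.6, 14.4 and 14.2 CPM (log2 fold change −2.46). All 3 genes had groups that did not overlap. Ifi27 was the exception, at 34.1, 23.1 and 44.5 CPM against 52.1, 54.8 and 56.0 CPM (log2 fold change 0.68, adjusted p = 1).

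The sham libraries lay as low. In them Isg15 was at 7.24, 24.8 and 7.18 CPM and Usp18 at 2.51, 7.98 and 5.03 CPM, so that for Isg15 as for Usp18 the sham and resected libraries overlapped. The median log2 fold change of the list was −1.53 for sham over baseline, with 17 members lower at an unadjusted p under 0.05 beside 3.46% of all genes, and −0.29 for resected over sham, where edgeR put 0 members at that p and called 0. At P10 baseline, in pups never operated on and 9 days after tamoxifen, Isg15 was at 6.13, 2.35 and 2.17 CPM and Usp18 at 2.97, 3.48 and 6.02 CPM. The summed level of the whole list was 2243 to 2954 CPM at P2 baseline, 948 to 1304 CPM at P2 sham +3 days, 1031 to 1179 CPM at P2 resected +3 days and 825 to 973 CPM at P10 baseline. At P10 sham +3 days it was 1709 to 1799 CPM and at P10 resected +3 days 1340 to 6926 CPM, above P10 baseline in all 6 libraries. The heatmap of this list shows 32 of the 33 genes in the 9 libraries of the P2 window.

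**Figure D3:**
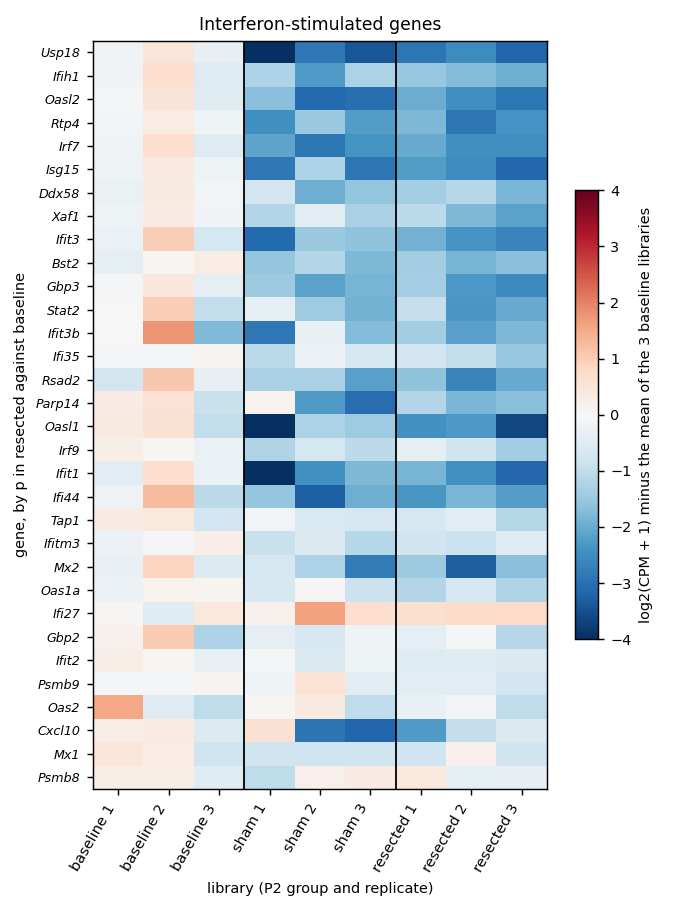
Rows are 32 of the 33 interferon-stimulated genes tested and columns the 9 libraries of the P2 window; colour is log2(CPM + 1) minus the mean of the 3 baseline libraries. The sham and resected columns lie below the baseline mean in nearly every row, Ifi27 being above it in the resected libraries.

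Promoter sequence was at hand in RefSeq (GRCm38.p6, from 250 bases before to 50 bases after each start) for 25 of these 33 genes. The core of the ISRE was searched as TTTC, 2 bases of any kind and TTTC on both strands, and stood in 14 of the 25 (56%) beside 440 of 11504 genes tested that had a window (3.82%). A match is a description of the letters, and binding was not measured. The list was made of known interferon-stimulated genes, so this share describes the list and says nothing of these libraries. The stretches below are examples from the 11 genes of this list with the element before the start. The genes shown were lower in all 3 resected libraries or, in Stat2, had the same sign with groups that overlapped. Bst2, Oas1a and Cxcl10, also lower in all 3 resected libraries, carry the element too and are not printed. Capitals mark every base within a match on either strand, letters run 5′ to 3′ along the gene, and all lie before the start.
Isg15 at chr4:156200845-156200926 on the minus strand: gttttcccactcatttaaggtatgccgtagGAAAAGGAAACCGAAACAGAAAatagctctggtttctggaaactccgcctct
Ifit3 at chr19:34583343-34583446 on the plus strand: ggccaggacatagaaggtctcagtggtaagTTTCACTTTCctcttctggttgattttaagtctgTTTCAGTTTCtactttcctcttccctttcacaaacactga
Ifit1 at chr19:34640755-34640843 on the plus strand: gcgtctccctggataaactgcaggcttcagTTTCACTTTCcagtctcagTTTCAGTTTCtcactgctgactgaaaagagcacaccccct
Gbp3 at chr3:142559969-142560043 on the plus strand: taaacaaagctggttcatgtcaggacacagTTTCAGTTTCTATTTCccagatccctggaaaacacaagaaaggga
Rsad2 at chr12:26456533-26456602 on the minus strand: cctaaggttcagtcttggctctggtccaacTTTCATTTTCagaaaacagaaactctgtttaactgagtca
Stat2 at chr10:128270248-128270315 on the plus strand: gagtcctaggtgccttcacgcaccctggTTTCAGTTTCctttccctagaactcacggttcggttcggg

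The genes behind these stretches had log2 fold changes of −2.74 (Isg15), −2.63 (Ifit3), −2.70 (Ifit1), −2.08 (Gbp3), −2.59 (Rsad2) and −1.87 (Stat2). Ifit3, whose protein binds IFIT1 and steadies it on foreign RNA, was at 28.7, 69.7 and 20.7 CPM at baseline and 8.62, 5.94 and 4.68 CPM after resection. Its copy Ifit3b carries the same stretch letter for letter. Rsad2, the antiviral enzyme viperin, was at 8.65, 32.5 and 11.7 CPM against 4.22, 1.58 and 2.97 CPM. Stat2, a transcription factor that acts on the ISRE, was at 79.2, 155 and 38.9 CPM against 41.1, 14.9 and 18.7 CPM, and its groups overlapped by 1 library on each side. In bulk libraries fewer cells that use a gene and less of its RNA per cell cannot be told apart.

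Outside this list the lowest p-values among lower genes belonged to Cmpk2, Fabp5, Gstm1 and Lgals9. Cmpk2, a mitochondrial nucleotide kinase that interferon also induces, was at 50.6, 67.7 and 44.8 CPM against 16.5, 13.9 and 21.9 CPM (log2 fold change −1.64, adjusted p = 0.176). Fabp5, a fatty acid carrier, was at 383, 336 and 488 CPM against 145, 200 and 244 CPM (log2 fold change −1.03, adjusted p = 0.261). Lgals9, the secreted lectin galectin-9, was at 317, 405 and 505 CPM against 201, 151 and 131 CPM (log2 fold change −1.35, adjusted p = 0.42). Baseline and resected libraries did not overlap in these genes. Gstm1, a glutathione transferase, was tight in every group, at 314, 281 and 333 CPM at baseline, 191, 190 and 176 CPM after sham surgery and 176, 179 and 181 CPM after resection (log2 fold change −0.79, adjusted p = 0.31).

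Genes of the elastic fibre lay higher after resection. Of 18 tested, 15 had a positive fold change beside 51.4% of all genes, 6 (33.3%) were higher at an unadjusted p under 0.05 beside 3.81% of all genes, none was called by edgeR, and the median log2 fold change was 0.36. Fbln5, which ties elastin to cells and microfibrils, was at 214, 215 and 284 CPM at baseline, 281, 331 and 354 CPM after sham surgery and 539, 398 and 528 CPM after resection (log2 fold change 1.04, adjusted p = 0.126). The resected libraries lay above all others for Fbln5, with a log2 difference over sham of 0.60 (unadjusted p = 0.00976). Eln, elastin itself, was at 493, 554 and 487 CPM at baseline and 819, 1592 and 2638 CPM after resection (log2 fold change 1.72, adjusted p = 0.152). Its sham libraries were at 785, 1177 and 712 CPM, above baseline and within reach of the lowest resected library, and at P10 baseline it was at 2412, 3888 and 2495 CPM. Mfap4, a microfibril glycoprotein, and Fbln1, another fibulin, had log2 fold changes of 1.19 and 1.18, and in each every resected library was above every baseline library. DESeq2 called 5 of this list higher (Eln, Fbln1, Fbln5, Ltbp3 and Mfap4) and voom 4. With any 1 library left out, the number of members at an unadjusted p under 0.05 was 6 to 7.

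Most fibrillar collagens and enzymes that process them had a positive fold change. Of 31 tested, 24 had a positive fold change beside 51.4% of all genes, 5 were higher at an unadjusted p under 0.05 beside 3.81%, none was called by edgeR, and the median log2 fold change was 0.27. DESeq2 called Loxl1 and Pcolce2 higher, and voom Loxl1. Col3a1, the second major fibrillar collagen of the heart, was at 22487, 25336 and 22068 CPM at baseline and 27560, 42337 and 48983 CPM after resection (log2 fold change 0.77, adjusted p = 0.553). Col1a1, the first, was at 6889, 9859 and 5490 CPM against 6451, 14119 and 15422 CPM, and its groups overlapped through resected replicate 1 (log2 fold change 0.69, unadjusted p = 0.0624). Loxl1, which cross-links elastin and collagen, was at 493, 487 and 595 CPM against 660, 798 and 870 CPM, and its sham libraries (517, 611 and 514 CPM) were as low as baseline (resected over sham 0.50, unadjusted p = 0.0106). Pcolce2, an enhancer of collagen C-proteinase, was at 11.003, 11.3 and 6.76 CPM at baseline, 23.8, 38.1 and 19.6 CPM after sham surgery and 24.2, 16.7 and 22.5 CPM after resection (log2 fold change 1.12, adjusted p = 0.307). For sham over baseline the median of this list was −0.18, with 6 members lower at an unadjusted p under 0.05 beside 3.46% of all genes. For resected over sham it was 0.50, with 10 members higher at an unadjusted p under 0.05 beside 3.38% of all genes. The count for resected over baseline was 10 without resected replicate 1 and 4 without baseline replicate 3 or resected replicate 2, and the median was 0.12 without resected replicate 3 and 0.42 without resected replicate 1.

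Among 19 other collagens the median log2 fold change was 0.37 and 5 were higher at an unadjusted p under 0.05, beside 3.81% of all genes. These 5 include Col6a4 and Col25a1, which had no count at baseline and could pass the filter on low counts only through other groups. The count was 2 without resected replicate 3 and 3 without baseline replicate 3. Col8a1, a network-forming collagen of vessels, was at 42.0, 39.6 and 56.9 CPM at baseline and 53.1, 96.3 and 206 CPM after resection, with groups that overlapped (log2 fold change 1.36, adjusted p = 0.708). Col6a4 had no count in any baseline or sham library and 1.41, 2.26 and 1.65 CPM after resection, at least 36.3-fold higher than baseline against a floor of 3 counts over the group. Col25a1 had no count at baseline either and 1.11, 0.812 and 1.101 CPM after resection, at least 19.7-fold higher on the same floor, with 3.30, 0 and 0 CPM in the sham libraries. Across all genes tested 396 had no count at baseline and 34 had none after resection.

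Of 24 basement membrane genes 3 were higher at an unadjusted p under 0.05 beside 3.81% of all genes, and the median log2 fold change was 0.26. The median was 0.12 without baseline replicate 3 and 0.13 without resected replicate 3, against 0.44 without baseline replicate 2 (5 members) and 0.46 without resected replicate 1. Hmcn2, a hemicentin that links neighbouring cell layers, was at 1.15, 1.07 and 1.28 CPM at baseline, 2.28, 3.23 and 2.35 CPM after sham surgery and 7.86, 3.29 and 5.78 CPM after resection (log2 fold change 2.27, adjusted p = 0.191). The 3 groups of Hmcn2 did not overlap, and at P10 baseline it was at 332, 157 and 94.6 CPM. Col4a6, a chain of collagen IV, was at 0.184, 0.0930 and 0 CPM at baseline and 1.82, 2.61 and 1.82 CPM after resection, and its sham libraries (0.372, 2.44 and 4.31 CPM) covered the resected range. Lama5, a laminin chain, was at 0.598, 2.47 and 0 CPM against 8.85, 2.48 and 7.54 CPM and all but met baseline in its lowest resected library. Of 13 small leucine-rich proteoglycans 4 were higher at an unadjusted p under 0.05 beside 3.81% of all genes, with a median of 0.62 (0.56 with genes at 0 set to their bound). Without resected replicate 1 this was 2 with a median of 0.29, and the count was also 2 without baseline replicate 2 or resected replicate 3. Bgn, biglycan, was at 1238, 1269 and 1250.5 CPM at baseline and 1510, 1834 and 2434 CPM after resection (log2 fold change 0.62, adjusted p = 0.732). All sham libraries of Bgn were below all resected libraries (resected over sham 0.74, unadjusted p = 0.00222).

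Matricellular genes, whose secreted products signal from the matrix rather than build it, had positive medians over sham as well as over baseline. Of 25 tested, 9 (36%, beside 3.81% of all genes) were higher than baseline at an unadjusted p under 0.05, none was called by edgeR or DESeq2, and the median log2 fold change was 0.49. Voom called 1 member higher, Cthrc1. For sham over baseline the median was −0.24, and for resected over sham it was 0.81 with 7 members higher at that p beside 3.38% of all genes and none called by edgeR. The count over baseline ran from 5 (median 0.23) without resected replicate 3 to 12 (median 0.81) without resected replicate 1.

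Spp1, osteopontin, which is made by activated macrophages and fibroblasts, was at 1.01, 4.42 and 0 CPM at baseline, 0, 2.17 and 0.131 CPM after sham surgery and 36.6, 124 and 18.5 CPM after resection. All 3 resected libraries were above the other 6 (resected over baseline 5.02, SE 1.48, adjusted p = 0.553), and the log2 difference over sham was 6.23 (unadjusted p = 0.00128, adjusted p = 1). Of its exon bases, 18.8% overlap a predicted gene on the same strand. Thbs4, thrombospondin 4, an injury-responsive glycoprotein, was at 5.06, 7.67 and 9.69 CPM at baseline, 4.37, 0.507 and 8.75 CPM after sham surgery and 16.4, 26.5 and 88.0 CPM after resection (resected over baseline 2.55, adjusted p = 0.572). Its resected libraries were likewise above the other 6, replicate 3 most (resected over sham 3.27, unadjusted p = 0.000753). Tgfbi, a TGF-beta-induced adhesion protein, was at 40.6, 27.0 and 50.9 CPM against 63.4, 73.2 and 89.2 CPM, with sham at 45.5, 51.2 and 49.5 CPM (log2 fold change 0.93, adjusted p = 0.467).

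Other members were less apart. Cthrc1, a secreted marker of reparative fibroblasts, was at 134, 137 and 262 CPM at baseline and 426, 339 and 655 CPM after resection, but its sham libraries at 126, 432 and 513 CPM reached both. Ccn2, connective tissue growth factor, was at 208, 138 and 307 CPM at baseline, 227, 164 and 164 CPM after sham surgery and 173, 474 and 516 CPM after resection, where replicate 1 lay within the baseline range. Cilp, a matrix protein that binds TGF-beta, was at 12.015, 15.1 and 17.4 CPM against 15.1, 62.9 and 113 CPM, again with replicate 1 at the baseline level. Postn, periostin, a matrix protein of developing and activated fibroblasts, was at 13693, 15604 and 11555 CPM against 13330, 9764 and 17040 CPM (log2 fold change −0.03, adjusted p = 1). Of 20 contractile myofibroblast genes 3 were higher at an unadjusted p under 0.05 beside 3.81% of all genes (median 0.43). This was 0 without baseline replicate 1 or resected replicate 3 (median 0.18), and 1 without resected replicate 2. All 9 mural cell markers, smooth muscle myosin among them, had a positive fold change (median 0.72). The part of mural cell RNA in the contractile genes, in Vtn and in other results was not tested. Acta2, smooth muscle actin, was at 728, 533 and 865 CPM against 615, 1304 and 1476 CPM and overlapped (log2 fold change 0.68, adjusted p = 1).

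Matrix proteases and their inhibitors numbered 31, of which 8 were higher at an unadjusted p under 0.05 (3.81% of all genes) and 10 were higher without overlap (7.36% of all genes), with a median of 0.46. Without resected replicate 3 the number at that p was 4. Of the list, 2 members had no count at baseline, Mmp12 among them. Timp2, an inhibitor of metalloproteinases, was at 1075, 1184 and 1049 CPM at baseline, 1350, 1313 and 1316 CPM after sham surgery and 1595, 1404 and 1785 CPM after resection (log2 fold change 0.53, adjusted p = 0.553). Its 3 groups did not overlap. Timp1, the inducible inhibitor, was at 23.2, 17.7 and 42.3 CPM against 36.2, 88.5 and 75.3 CPM and overlapped through resected replicate 1 (log2 fold change 1.27, adjusted p = 0.835). Mmp12, the macrophage elastase, had no count at baseline and 1.29, 2.18 and 0.661 CPM after resection, at least 28.8-fold higher.

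**Figure D4:**
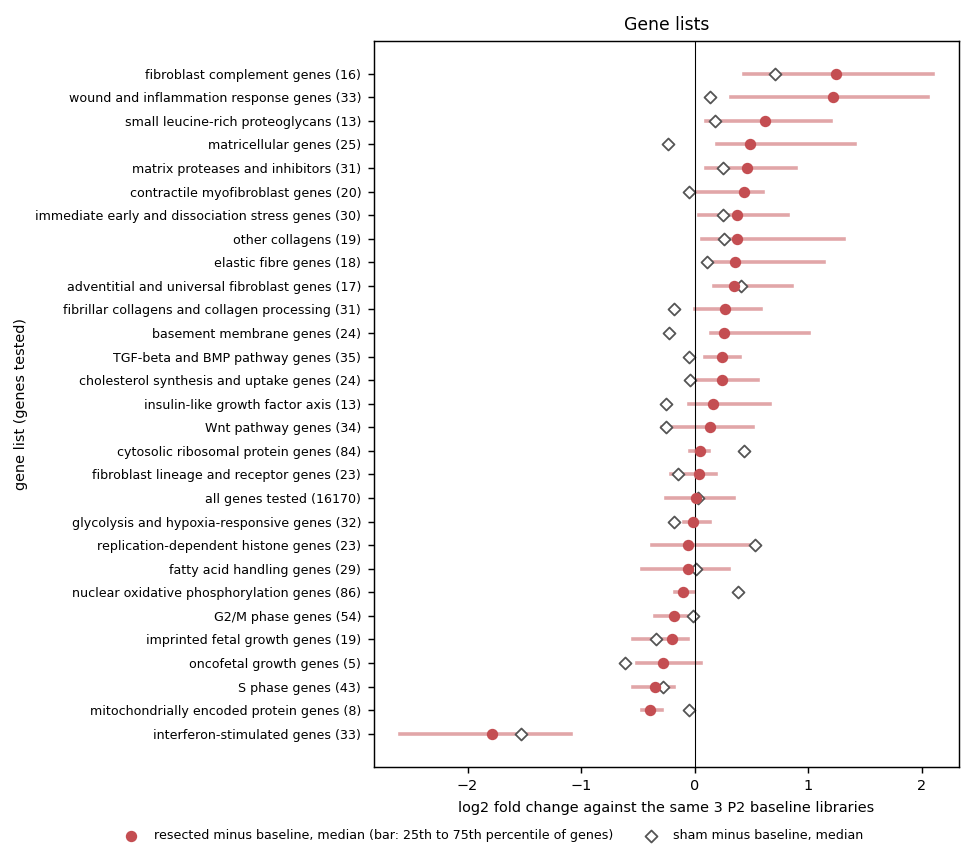
Each row is a gene list with the number of genes tested, and the x axis is the log2 fold change against the same 3 baseline libraries; red points are the median of resected over baseline with bars from the 25th to the 75th percentile of genes, and open diamonds the median of sham over baseline. Interferon-stimulated genes lie at −1.79 and −1.53, complement genes at 1.24 and 0.71, and matricellular genes at 0.49 and −0.24.

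Complement genes that fibroblasts make were among the highest lists. Of 16 tested, 8 (50%) were higher at an unadjusted p under 0.05 beside 3.81% of all genes, 9 (56.2%) were higher without overlap beside 7.36% of all genes, none was called by edgeR or voom, and the median log2 fold change was 1.24. DESeq2 called C1ra and C1s1 higher. For sham over baseline the median was 0.71. C1ra, a protease of the first component, was at 12.5, 5.30 and 5.42 CPM at baseline, 19.6, 30.8 and 15.7 CPM after sham surgery and 39.1, 28.6 and 27.5 CPM after resection (log2 fold change 2.03, adjusted p = 0.216). C1s1, its partner, was at 7.32, 5.86 and 0.853 CPM against 35.9, 22.9 and 24.995 CPM (log2 fold change 2.57, adjusted p = 0.31). Both genes were above baseline in every sham library too, and both have near copies: 42.4% of the 75-base stretches of C1ra and 24.8% of those of C1s1 also stand in another gene. C3, the central component, was at 14.9, 2.05 and 1.89 CPM against 35.7, 39.0 and 41.7 CPM, with sham libraries spread from 0.914 to 34.0 CPM. Clu, clusterin, which holds the terminal complex in check, was at 9.67, 2.74 and 11.9 CPM at baseline, 2.51, 12.1 and 5.35 CPM after sham surgery and 63.0, 29.9 and 26.8 CPM after resection, all 3 above the other 6 libraries (resected over sham 2.58, unadjusted p = 0.00224). With 1 library left out, 5 to 7 of the list were at an unadjusted p under 0.05.

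Wound and inflammation response genes had a median log2 fold change of 1.22 over 33 tested, and 11 (33.3%, beside 3.81% of all genes) were higher at an unadjusted p under 0.05 while none was called by edgeR. DESeq2 called Cxcl12, Lif and Saa3 higher, and voom Cxcl12. For sham over baseline the median was 0.13. Without resected replicate 3 the median was 0.51 with 7 members at that p. Of the list, 3 members had no count at baseline, Saa3 among them. Cxcl12, the chemokine that retains progenitor and immune cells, was at 20.3, 30.2 and 20.8 CPM at baseline, 34.3, 74.98 and 61.7 CPM after sham surgery and 80.1, 66.0 and 95.1 CPM after resection (log2 fold change 1.76, adjusted p = 0.126). Every sham library of Cxcl12 was above baseline as well. Saa3, an acute phase protein of stromal cells, had no count at baseline, 0, 3.87 and 0 CPM after sham surgery and 21.6, 7.18 and 9.58 CPM after resection, at least 241-fold higher than baseline (adjusted p = 0.31). Lif, a cytokine of the interleukin-6 family, was at 3.59, 1.63 and 2.25 CPM against 5.69, 7.18 and 13.8 CPM, with sham libraries of 5.06, 6.13 and 6.00 CPM.

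Macrophage markers had a positive median as well. All 17 had a positive fold change beside 51.4% of all genes (median 1.73), 3 were higher at an unadjusted p under 0.05 beside 3.81% of all genes, and their summed level was 15.2 to 83.0 CPM at baseline, 13.4 to 232 CPM after sham surgery and 82.3 to 534 CPM after resection. Lyz2, a lysozyme of myeloid cells, was at 8.65, 6.47 and 4.57 CPM at baseline, 2.93, 26.7 and 49.2 CPM after sham surgery and 217, 86.6 and 40.3 CPM after resection (log2 fold change 4.12, adjusted p = 0.386). None of the macrophage markers was called by edgeR or voom, while DESeq2 called Lyz2 higher. Csf1r, the receptor that defines the lineage, was at 4.01, 3.07 and 0 CPM against 28.8, 18.5 and 7.32 CPM. Among the resected libraries replicate 1 was highest in both genes and in the marker sum, and replicate 3 lowest. Without resected replicate 1 the median of the macrophage markers was 0.75 with 2 members at that p, without baseline replicate 3 it was 1.28 with 2, and without baseline replicate 1 it was 2.26 with 5. Of the genes of the matricellular, complement and wound lists named above, C1ra, C1s1, Clu and Saa3 were likewise highest in replicate 1, Spp1 and Timp1 in replicate 2, and Thbs4, Tgfbi, Cthrc1, Ccn2, Cilp, Postn, C3, Cxcl12 and Lif in replicate 3. The part of macrophage RNA in the matricellular, complement and wound lists was not tested.

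Neutrophil and lymphocyte markers summed to 0 to 14.1 CPM at baseline and 1.27 to 7.01 CPM after resection, with Cd3e, Cd3d, Cd3g, Cxcr2 and Nkg7 at 0 in every library of the P2 window. Mural cell markers summed to 439 to 637 CPM at baseline, 429 to 1008 CPM after sham surgery and 614 to 1057 CPM after resection, and 4 of 9 were higher at an unadjusted p under 0.05 beside 3.81% of all genes. Higd1b, a pericyte marker, was at 5.29, 5.35 and 5.79 CPM at baseline, 16.7, 20.6 and 20.7 CPM after sham surgery and 13.3, 22.6 and 20.9 CPM after resection (log2 fold change 1.79, adjusted p = 0.126). DESeq2 and voom both called Higd1b higher, and edgeR called none of the mural cell markers. Myh11, the smooth muscle myosin, was at 6.72, 7.07 and 0 CPM at baseline, 7.52, 9.41 and 3.85 CPM after sham surgery and 23.7, 27.6 and 23.8 CPM after resection, above the other 6 libraries. Endothelial markers summed to 229 to 386 CPM against 247 to 582 CPM, and the highest sum was resected replicate 1, without which their median log2 fold change was −1.12 in place of 0.35 (−0.06 without baseline replicate 3 and 0.92 without baseline replicate 1). Erythroid markers summed to 25.8 to 47.2 CPM at baseline, 51.1 to 308 CPM after sham surgery and 44.0 to 116 CPM after resection, and epicardial markers to 798 to 922 CPM against 1053 to 1178 CPM. Of the epicardial sum, Aldh1a2, the retinoic acid enzyme that fibroblasts also use, gave 887, 795 and 916 CPM at baseline and 1040, 1170 and 1167 CPM after resection, and 5 of the 9 tested had a negative fold change. Their median log2 fold change was −0.12. It was 3.48, 0.32 and 0.42 without baseline replicates 1, 2 and 3, and 0.20 without resected replicate 2.

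Cardiomyocyte markers went the other way. All 14 had a negative fold change beside 48.4% of all genes (median −0.88), 3 were lower at an unadjusted p under 0.05 beside 0.717% of all genes, and their sum was 1209 to 1608 CPM at baseline, 1015 to 1395 CPM after sham surgery and 346 to 998 CPM after resection. Tnnt2, cardiac troponin T, was at 245, 271 and 183 CPM at baseline, 227, 228 and 130 CPM after sham surgery and 58.9, 129 and 143 CPM after resection (log2 fold change −1.08, adjusted p = 1). Pln, phospholamban, was at 21.6, 18.7 and 22.4 CPM against 7.68, 7.60 and 9.36 CPM, and 59.6% of its exon bases overlap another gene. Voom called Pln lower, and neither edgeR nor DESeq2 called any of the cardiomyocyte markers. Without resected replicate 1, the library with the lowest Tnnt2, the median of the cardiomyocyte markers was −0.44 with 2 members at that p, and the count was 1 without baseline replicate 1 or 2. The part of these transcripts in other results was not tested. The plot of marker sums shows the 9 libraries.

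**Figure D5:**
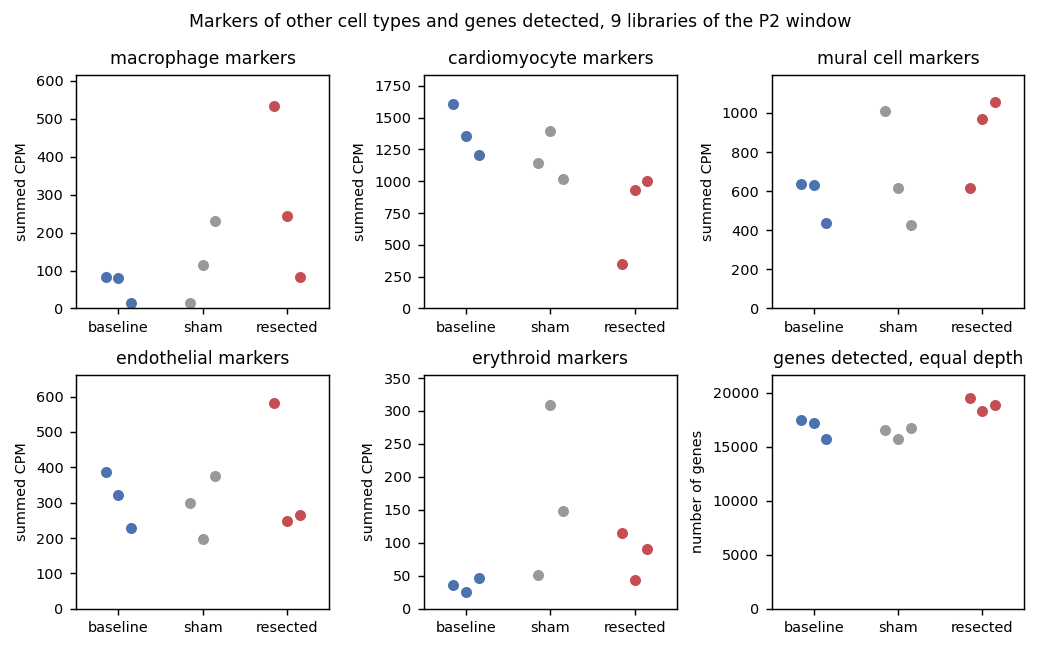
Summed CPM of macrophage, cardiomyocyte, mural, endothelial and erythroid markers, and in the last panel the number of genes detected at an equal depth of 10462737 reads, on the y axes for the 3 baseline, 3 sham and 3 resected libraries; points are libraries. Cardiomyocyte sums lay lower in the resected libraries (346 to 998 CPM) than at baseline (1209 to 1608 CPM), and the number of genes detected lay higher.

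Among TGF-beta and BMP pathway genes, 35 were tested, 5 were higher at an unadjusted p under 0.05 beside 3.81% of all genes and 1 lower beside 0.717%, and the median log2 fold change was 0.24. Without resected replicate 3 the median was 0.04 with 2 members higher, and the higher count was also 2 without baseline replicate 3 and 3 without resected replicate 2. The lower count was 0 without baseline replicate 1 or 2 or resected replicate 3. Of the list, 3 members had no count at baseline, Fst among them. Of the ligands, Bmp6 was at 45.9, 77.7 and 58.0 CPM at baseline and 82.4, 105 and 111 CPM after resection, and Tgfb3 at 129, 144 and 87.9 CPM against 126, 178 and 291 CPM, where replicate 1 was within the baseline range. Fst, follistatin, which binds activin, had no count at baseline and 0.235, 0.854 and 1.05 CPM after resection, at least 14.6-fold higher, with sham at 2.41, 0.968 and 0.0653 CPM. Smad6, the inhibitory SMAD of the BMP branch, was at 81.2, 90.2 and 56.8 CPM against 53.7, 47.9 and 28.1 CPM (log2 fold change −0.82, adjusted p = 0.956). Of 34 Wnt pathway genes 3 were higher at that p, again beside 3.81%, and the median was 0.13. The median was 0.01 without resected replicate 3, 0.22 without resected replicate 2, 0.31 without resected replicate 1 and 0.33 without baseline replicate 2. Wnt9a, a ligand, was at 7.83, 8.37 and 14.7 CPM at baseline, 32.7, 21.0 and 31.8 CPM after sham surgery and 24.5, 20.1 and 24.7 CPM after resection (log2 fold change 1.17, adjusted p = 0.44). Sfrp2, a secreted modulator of Wnt ligands, was at 105, 84.1 and 68.1 CPM against 238, 118 and 202 CPM. Of 13 genes of the insulin-like growth factor axis 3 were higher and 1 lower at that p, beside the same 3.81% and 0.717% (median 0.17). The higher count was 1 without baseline replicate 1 or 2, and the median was 0.03 without baseline replicate 3 and 0.43 without resected replicate 2. The lower count was 0 without baseline replicate 1 or 2 or resected replicate 2 or 3. The binding proteins split, and Igfbp4 was at 827, 733 and 1108 CPM against 1352, 1626 and 1611 CPM, and Igfbp3 at 262, 268 and 115 CPM against 130, 72.9 and 56.9 CPM, with groups that overlapped.

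Adventitial and universal fibroblast genes, which mark the Pi16+ fibroblasts of vessel sheaths, had a median log2 fold change of 0.35 after resection and 0.41 after sham surgery. Of 17 tested, 5 (29.4%, beside 3.81% of all genes) were higher at an unadjusted p under 0.05, and none was called by edgeR, while DESeq2 called 2 and voom 2 (Pi16 and Thbd). Without resected replicate 1 the median was 0.20 with 3 members at that p, and the count was also 3 without baseline replicate 1. Without resected replicate 2 the median was 0.57, and without baseline replicate 3 the count was 7. Pi16, a peptidase inhibitor of these cells, was at 13.6, 15.9 and 20.0 CPM at baseline, 40.8, 127 and 72.6 CPM after sham surgery and 123, 46.9 and 63.9 CPM after resection (log2 fold change 2.24, SE 0.40, adjusted p = 0.0943). Thbd, thrombomodulin, an anticoagulant receptor, was at 13.2, 20.6 and 18.5 CPM, 47.4, 48.1 and 43.5 CPM and 51.9, 29.6 and 53.6 CPM in the same order (log2 fold change 1.37, adjusted p = 0.126). In both genes sham and resected libraries overlapped and all 6 lay above baseline, with log2 differences between them of −0.04. At P10 baseline Pi16 was at 463, 863 and 984 CPM and Thbd at 166, 170 and 161 CPM. Tnfaip2, a gene induced by tumour necrosis factor that is in none of these lists, was at 12.6, 12.9 and 16.9 CPM, 45.0, 64.7 and 40.2 CPM and 45.3, 35.8 and 74.4 CPM (log2 fold change 1.88, adjusted p = 0.0943).

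Lineage and receptor genes of fibroblasts had a median log2 fold change of 0.04 over 23 tested (−0.03 without resected replicate 3), with 1 higher (3.81% of all genes) and 1 lower (0.717% of all genes) at an unadjusted p under 0.05. The higher count was 0 without baseline replicate 1 or 3 or resected replicate 2 or 3. The lower count was 0 without baseline replicate 2 or resected replicate 2 or 3. Sox9, a factor of valve and cartilage progenitors, was at 298, 395 and 280 CPM at baseline, 253, 214 and 248 CPM after sham surgery and 262, 236 and 195 CPM after resection (log2 fold change −0.49, unadjusted p = 0.031). Pdgfrb, the receptor of mural cells and activated fibroblasts, was at 208, 256 and 126 CPM against 199, 439 and 400 CPM and overlapped (log2 fold change 0.82, unadjusted p = 0.0411). Tbx20, a cardiac T-box factor, was at 414, 444 and 190 CPM against 247, 171 and 228 CPM.

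S phase genes lay slightly lower. Of 43 S phase genes, 42 had a negative fold change beside 48.4% of all genes, the median was −0.35, 14 (32.6%) had resected libraries all below baseline beside 5.12% of all genes, and none was called or at an unadjusted p under 0.05 by edgeR, nor called by DESeq2 or voom. The sham libraries gave a median of −0.28 over the same baseline libraries. Prim1, a subunit of primase, was at 56.7, 43.3 and 66.1 CPM at baseline and 38.7, 34.1 and 34.8 CPM after resection (log2 fold change −0.63, unadjusted p = 0.103). Mcm6, of the replicative helicase, was at 329, 314 and 354 CPM against 212, 299 and 272 CPM (log2 fold change −0.35). For the 54 G2/M phase genes the median was −0.18 and 5 (9.26%, beside 5.12% of all genes) lay apart below baseline, with 0 called by any of the 3 tools and 0 at an unadjusted p under 0.05 by edgeR. The G2/M median was −0.07 without resected replicate 1 and −0.30 without resected replicate 2. Mki67, a marker of cycling cells, was at 282, 246 and 138 CPM at baseline, 433, 33.3 and 80.3 CPM after sham surgery and 134, 112 and 174 CPM after resection, and Ccna2, cyclin A2, at 131, 135 and 136 CPM against 76.6, 156 and 110 CPM. Both overlapped, and Cdk1, the mitotic kinase, had a log2 fold change of −0.09. At P10 baseline Ccna2 was at 40.0, 16.4 and 13.9 CPM. The 23 replication-dependent histone genes had a median of −0.06, whose sign held in 9 of 16 alternatives. With 1 library left out it ran from −0.29 without resected replicate 2 to 0.29 without baseline replicate 3, and it was positive in 4 of these 6 fits.

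Imprinted fetal growth genes had a median of −0.20 over 19 tested, with 15 negative beside 48.4% of all genes and 1 lower at an unadjusted p under 0.05 beside 0.717%. That gene was Dlk1, a fetal inhibitor of differentiation, at 1104, 1164 and 1517 CPM at baseline, 776, 756 and 563 CPM after sham surgery and 721, 803 and 538 CPM after resection (log2 fold change −0.88, unadjusted p = 0.0234), and without baseline replicate 3 or resected replicate 3 no member was at that p. Both groups at P5 lay below all baseline libraries and overlapped each other. Igf2 (−0.19) and H19 (−0.40), neighbours on 1 imprinted locus, overlapped between groups, and Cdkn1c, a cell cycle inhibitor, was at 215, 227 and 265 CPM against 170, 148 and 135 CPM (log2 fold change −0.64, unadjusted p = 0.0521).

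Metabolic lists had medians of −0.39 to 0.24, beside 0.01 for all genes, and none of their genes was called by edgeR, while DESeq2 called Eno2 and Angptl4 higher and Fabp5 lower and voom Angptl4 higher and Fabp5 lower. The 86 nuclear oxidative phosphorylation genes had a median of −0.10 and the 84 cytosolic ribosomal protein genes 0.04, with none of either at an unadjusted p under 0.05. Neither median held its sign: the first was 0.12 without baseline replicate 3 and −0.21 without baseline replicate 2, and the second 0.21 without baseline replicate 3 and −0.14 without resected replicate 3. For sham over baseline these medians were 0.38 and 0.44, and for resected over sham −0.47 and −0.43, with 11 and 2 members lower at that p beside 1.13% of all genes. The 8 mitochondrially encoded protein genes tested all had a negative fold change, with a median of −0.39 (sham over baseline −0.05), 2 of them all below baseline (25%, beside 5.12% of all genes) and none at that p. Glycolysis genes (32) had a median of −0.02 and fatty acid genes (29) −0.06, which ran from −0.11 to 0.18 and from −0.10 to 0.03 with 1 library left out, and cholesterol genes (24) had 0.24, which was 0.07 without resected replicate 3 and 0.11 without baseline replicate 1. Angptl4, an inhibitor of lipoprotein lipase, was at 134, 118 and 107 CPM at baseline, 127, 135 and 148 CPM after sham surgery and 186, 197 and 272 CPM after resection (log2 fold change 0.86, adjusted p = 0.191). All 3 resected libraries were above the other 6 for Angptl4 (resected over sham 0.68, unadjusted p = 0.00304). Eno2, a glycolytic enolase, was at 0.368, 0 and 0 CPM at baseline, 8.22, 8.53 and 2.68 CPM after sham surgery and 3.93, 2.95 and 3.58 CPM after resection. Immediate early and dissociation stress genes had a median of 0.37 over 30 tested, with 1 at an unadjusted p under 0.05, beside 3.81% of all genes. Without resected replicate 3, in which Fosl2 (148 CPM), Gadd45b (211 CPM) and Hspa1a (74.4 CPM) were at their highest of the 6 libraries, the median was −0.08 with 0 members at that p. Without resected replicate 1 it was 0.67 with 6 members, without resected replicate 2 it was 0.54 with 3, and without baseline replicate 1 or 3 the count was 0.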

How the data were processed

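GFP+ cells of 18 libraries in 6 groups of 3 were sequenced from a single end after SMARTer v4 amplification and Nextera XT library preparation. Per the labels and the study's methods, the authors trimmed reads with fastp 0.20.0, mapped them with STAR 2.7.0f to GRCm38.p6 with the GENCODE M22 annotation, and counted them on exons per gene symbol with featureCounts of Subread 1.6.4 without strand. The deposited values are whole-number counts without normalization. Reads on a gene and its antisense partner cannot be told apart, and reads shared by gene copies or overlapping genes may be lost.

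The test was that of edgeR 4.0.16 under R 4.3.3, with TMM scaling, filterByExpr (minimum count 10, minimum total 15; 16170 of the 28906 symbols with a count kept), a quasi-likelihood fit of all 18 libraries with 1 mean per group, contrasts of group means and Benjamini-Hochberg adjustment over all genes, called at an adjusted p under 0.05. The study's methods name DESeq2, which here (1.42.0) is an alternative, as is voom (limma 3.58.1). Libraries held 10462737 to 22980554 counts; vegan 2.7.1 gave genes detected at equal depth. Same-group libraries were no duplicates (chi-square per gene 34.2 to 86.3). Folds against a group without counts use a floor of 3 counts over the group and, like the counts, cover counting error only, as PCR copies of a molecule were not marked. Scripts were tested on simulated data.

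Named genes were the called genes with separate groups and at least 5 CPM, the 8 with the smallest p in a direction with few such genes, up to 4 members of each list with the smallest p, and a fixed set. Among others, Isg15, Irf7, Ifi27, Ifit1, Ifit3, Gbp3, Rsad2, Stat2, C3 and genes named only as called by another tool were chosen after their values were seen. Members and lists were chosen with earlier results of these data known. Gene positions are GENCODE M21 and promoters RefSeq, both on GRCm38. Alternatives were other tools, scalings, filters, sets of libraries in the fit, equal depth, a replicate block and leaving out each library. Some single genes are not reported here, though they remain in the counts of genes and lists.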

Additional observations from a re-analysis of the deposited data

How the results depend on the processing

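The count of 2 genes called between resected and baseline libraries depended on the tool and the filter: it was 104 with DESeq2, 77 with voom, 151 without a filter on low counts, 1 with library totals alone (Vtn), 4 with only the libraries of both groups in the fit (Saa3 higher; Isg15, Usp18 and Irgm2 lower) and 0 with only the 9 libraries of the P2 window (584 at an unadjusted p under 0.05). The cause was not tested. With 1 library left out it was 0 to 4: 4 without baseline replicate 3 (Vtn, Pamr1, Olfr558 and Tecta), 1 without baseline replicate 1 (Vtn) and 0 without baseline replicate 2 or any resected library. For sham against baseline, 0 in edgeR's quasi-likelihood test (1229 at an unadjusted p under 0.05), the count was 137 with DESeq2, 110 without a filter, 1 at equal depth (Vtn), 0 with voom and 0 to 9 with 1 library left out (9 without sham replicate 1). For resected against sham it was 25 with DESeq2, 24 without a filter and 0 with each library left out.

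Replicate numbers did not pair the libraries, as deviations of same-numbered baseline and resected libraries correlated at 0.043, −0.0942 and −0.0081. A replicate block gave 3 calls for resected against baseline (Vtn, Pamr1 and Spp1, adjusted p = 0.0374), 0 for sham against baseline and 1 for resected against sham (Spp1).

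Vtn and Pamr1 kept their direction in 16 of 16 alternatives and were called in 10 and 8 of them, with adjusted p of 2.34e-21 to 0.248 and 1.84e-08 to 0.248. A gene without counts in a group was detectable only above 3 counts.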
